A study of Mus musculus with 34 samples.

Results

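10 well known target genes of p53 were followed through all 34 RNA-seq libraries of a mouse embryonic stem (ES) cell study of the NuRD complex: Cdkn1a, Mdm2, Ccng1, Phlda3, Trp53inp1, Sesn2, Bax, Bbc3, Pmaip1 and Fas. These 10 genes were chosen by name, with earlier results of these data known. They stand among 48709 genes counted in the libraries of triple mutant cells and 22018 genes counted in the libraries of single mutant cells. All cells were labelled as strain 129/Ola. The Control line carried Mta1 Flox/-, Mta2 +/+ and Mta3 flox/flox alleles, and the triple knockout (Mta123KO) lacked functional alleles of Mta1, Mta2 and Mta3, the genes of the MTA subunits that hold NuRD together. Both genotypes were labelled either as 2iL, growth in 2i+LIF (inhibitors and LIF, which keep ES cells in a self-renewing state), or as 48h, 48 hours in N2B27 medium without them. Each of these 4 groups held 4 libraries, numbered as 2 lines with 2 libraries each. The single mutants, all in 2i+LIF with 3 libraries a group, were Mta1_del/del (here Mta1_del) with its parent Mta1_flox/flox (Mta1_flox), Mta2_KO with Mta2_WT, and Mta3_del/del (Mta3_del) with its parent Mta3_flox/flox (Mta3_flox). In the triple mutant, Mta2 was disrupted with guide RNAs and Mta3 was then deleted in culture with Cre recombinase. All the cells were grown on gelatin, and the mutants are derived lines, so that a difference between a mutant and its control can include differences between lines.

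p53, encoded by Trp53, is a transcription factor that is held at low levels by the ubiquitin ligase Mdm2 and accumulates after DNA damage and other stress. It binds response elements near its target genes, which slow the cell cycle, adjust metabolism, trigger cell death at the mitochondrion or through death receptors, and restrain p53 itself. ES cells carry abundant p53. The question put to these libraries was whether RNA of the target genes rises when MTA proteins are lost. RNA levels do not measure the p53 protein, its modification or its binding, and each target is also controlled by other factors. In bulk RNA a changed level can come from all cells or from a share of them, which cannot be told apart here.

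RefSeq promoter windows (GRCm38.p6, from 250 bases before to 50 bases after a transcription start) were at hand for 8 of the 10 genes, in 11 windows, with no entry for Trp53inp1 and Pmaip1. The windows below are shown because the p53 half-site, the 10-base unit of a p53 response element, is what ties a promoter to this factor. Capitals mark each match to the half-site, searched on both strands.

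Cdkn1a, upstream start, chr17:29090729-29091028, plus strand: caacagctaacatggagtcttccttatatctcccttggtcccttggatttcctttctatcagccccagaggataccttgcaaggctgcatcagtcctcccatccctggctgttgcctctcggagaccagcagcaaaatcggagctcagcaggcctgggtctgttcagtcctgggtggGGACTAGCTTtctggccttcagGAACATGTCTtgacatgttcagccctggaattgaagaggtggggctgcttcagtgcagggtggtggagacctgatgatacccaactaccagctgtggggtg
Mdm2, chr10:117710709-117711008, minus strand: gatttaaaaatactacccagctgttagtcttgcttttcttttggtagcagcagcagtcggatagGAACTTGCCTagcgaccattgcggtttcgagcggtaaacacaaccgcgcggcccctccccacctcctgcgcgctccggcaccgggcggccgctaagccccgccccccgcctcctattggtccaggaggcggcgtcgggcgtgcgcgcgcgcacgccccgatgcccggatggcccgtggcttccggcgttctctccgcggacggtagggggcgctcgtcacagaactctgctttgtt
Ccng1, chr11:40755237-40755536, minus strand: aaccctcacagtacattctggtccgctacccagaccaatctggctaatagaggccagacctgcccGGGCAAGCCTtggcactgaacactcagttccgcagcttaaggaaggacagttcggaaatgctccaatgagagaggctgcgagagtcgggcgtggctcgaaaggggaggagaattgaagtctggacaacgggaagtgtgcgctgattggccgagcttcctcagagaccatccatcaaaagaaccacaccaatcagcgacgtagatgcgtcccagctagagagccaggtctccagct
Bax, chr7:45466849-45467148, minus strand: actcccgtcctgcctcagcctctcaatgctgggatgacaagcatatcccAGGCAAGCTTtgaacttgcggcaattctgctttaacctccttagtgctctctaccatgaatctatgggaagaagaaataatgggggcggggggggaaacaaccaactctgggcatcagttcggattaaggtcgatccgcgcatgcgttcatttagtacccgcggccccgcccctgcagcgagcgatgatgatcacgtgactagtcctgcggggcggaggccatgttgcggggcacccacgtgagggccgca
Phlda3, chr1:135765835-135766134, plus strand: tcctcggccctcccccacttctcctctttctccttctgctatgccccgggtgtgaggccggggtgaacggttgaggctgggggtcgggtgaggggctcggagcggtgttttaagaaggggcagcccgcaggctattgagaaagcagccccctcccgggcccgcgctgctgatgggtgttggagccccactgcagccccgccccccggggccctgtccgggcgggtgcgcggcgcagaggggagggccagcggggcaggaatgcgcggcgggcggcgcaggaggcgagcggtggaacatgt

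The Cdkn1a window held 2 half-sites, with first bases at -73 and -51 from the start. Mdm2, Ccng1 and Bax each held 1, at -186, -185 and -201. The Phlda3 window held none, and neither did the windows of a second Cdkn1a start, Bbc3, Sesn2 and Fas. Of 32851 promoter windows of the same length, 2745 (8.36%) held a half-site, so 4 of the 11 windows of these genes did so against that background. A match is a description of the letters and not evidence of binding, and a window without one says nothing of more distant elements.

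Reads assigned to genes ranged from 37855790 to 57602285 per library in the Control and Mta123KO set, and from 13105820 to 40613585 in the single-mutant set. Levels are given as CPM, read counts scaled to library size within each set by TMM normalisation, so that values of the different sets are not on a common scale. The targeted genes followed the genotype labels: Mta2 was 4.71 to 10.4 CPM in the 8 Mta123KO libraries and 111 to 201 CPM in the 8 Control libraries, Mta2 RNA in Mta2_KO was 22.6-fold lower than in Mta2_WT and Mta3 RNA in Mta3_del 6.21-fold lower than in Mta3_flox. Mta1 RNA in Mta1_del had a log2 fold change of -0.97 ± 0.177 that did not pass (edgeR, adjusted p = 1.0). The culture labels of the Control and Mta123KO set went against the cells' markers. The 7 naive ES cell markers (Pou5f1, Sox2, Nanog, Klf4, Esrrb, Zfp42, Tfcp2l1) summed to 727 to 781 CPM in Control libraries labelled 2iL and 4195 to 4546 CPM in those labelled 48h, whereas the 5 markers of the formative epiblast (Fgf5, Otx2, Dnmt3b, Pou3f1, Dnmt3a) summed to 1230 to 1813 CPM and 105 to 120 CPM. In Mta123KO the naive sums were 782 to 894 CPM under the label 2iL and 2257 to 3282 CPM under the label 48h. The formative sums were 557 to 799 CPM and 170 to 286 CPM there. Within a label the genotypes thus differed in these markers as well, and the part of this in the p53 targets was not tested. In the single mutants, labelled 2i+LIF, the sums were 3581 to 6263 and 111 to 292 CPM, like those of Control libraries labelled 48h. The names of the deposited files also gave the opposite culture. The labels were kept throughout. Exchanging them would exchange both genotype comparisons and reverse the sign of each culture change, and would leave the values of each library as given.

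In the libraries labelled 2iL, 6 of the 10 genes were higher in Mta123KO than in Control and none was lower. The rise reached 6.85-fold for Phlda3 and 4.43-fold for Mdm2, and lay between 1.33-fold and 2.42-fold for Trp53inp1, Cdkn1a, Ccng1 and Sesn2. The mitochondrial cell death genes Bax, Bbc3 and Pmaip1 did not pass the test. Fas was too low to be tested between the genotypes as wholes. A gene was called with an adjusted p under 0.05 (edgeR quasi-likelihood test, Benjamini-Hochberg over all 21651 genes tested). By that rule 27.1% of all genes were higher and 24.2% were lower in Mta123KO, against 6 and 0 of the 9 members tested. The ranges of the 6 genes did not overlap between genotypes, which 25.0% of all genes showed in that direction. The median log2 fold change was 0.96 over the 9 members and 0.01 over all genes.

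Mdm2 (ENSMUSG00000020184, chr10:117688875-117710758, minus strand), the ubiquitin ligase that forms the negative feedback on p53, measured 86.7 and 80.1 CPM in Control line 1 and 111 and 116 CPM in Control line 2. In Mta123KO it measured 591 and 459 CPM in line 1 and 329.6 and 346 CPM in line 2. The lowest Mta123KO library was above the highest Control library, and line 1 was above line 2. The log2 fold change was 2.15 ± 0.208 (SE, n = 4 libraries each, adjusted p = 5.78e-05). Phlda3 (ENSMUSG00000041801, chr1:135766119-135769136, plus strand), which encodes a pleckstrin homology protein that restrains Akt, rose from 10.4, 8.60, 13.2 and 15.3 CPM in the 4 Control libraries to 99.8, 90.3, 65.8 and 64.95 CPM in Mta123KO. The groups did not overlap, and the log2 fold change of 2.78 ± 0.215 was the largest of the 10 genes (adjusted p = 1.83e-05).

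Cdkn1a (ENSMUSG00000023067, chr17:29090976-29100727, plus strand) encodes p21, the cyclin-dependent kinase inhibitor through which p53 halts the cell cycle. It measured 18.5, 14.9, 26.1 and 26.9 CPM in Control and 54.3, 48.3, 49.3 and 41.3 CPM in Mta123KO. All 4 Mta123KO libraries were above all 4 Control libraries, with a log2 fold change of 1.18 ± 0.187 (2.26-fold, adjusted p = 0.000805). Ccng1 (ENSMUSG00000020326, chr11:40748552-40755311, minus strand), which encodes cyclin G1, measured 184, 155, 235 and 222 CPM in Control and 454, 422, 327 and 329.6 CPM in Mta123KO. Its log2 fold change was 0.96 ± 0.156 (adjusted p = 0.000929) with no overlap.

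Trp53inp1 (ENSMUSG00000028211, chr4:11156431-11174379, plus strand), a cofactor of p53 that also acts in autophagy, measured 238, 238, 253 and 266 CPM in Control and 643, 609, 560.4 and 561 CPM in Mta123KO. The groups were far apart, with a log2 fold change of 1.27 ± 0.0704 (adjusted p = 3.84e-06). Sesn2 (ENSMUSG00000028893, chr4:132492032-132510501, minus strand), an inhibitor of mTORC1 signalling that is also induced by Atf4, rose by less, from 105 to 123 CPM in Control to 138 to 153 CPM in Mta123KO. The groups did not overlap (log2 fold change 0.41 ± 0.0681, adjusted p = 0.00109). The calls of Ccng1 and Sesn2 were lost when the libraries of a line were summed and the 2 lines of a genotype were the samples (adjusted p = 0.0511 and 0.0667).

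Among the genes of mitochondrial cell death, Bax (ENSMUSG00000003873, chr7:45461697-45466898, minus strand), the pore-forming effector, measured 91.9 to 100 CPM in Control and 86.2 to 96.4 CPM in Mta123KO. Its log2 fold change was -0.09 ± 0.0585 (adjusted p = 0.235). Bax shares 192 exon bases with Gm45808 on the same strand, so part of its reads may have been assigned elsewhere or discarded. Bbc3 (ENSMUSG00000002083, chr7:16308393-16318205, plus strand), which encodes the BH3-only protein Puma, measured 15.4 to 18.2 CPM in Control and 15.7 to 19.8 CPM in Mta123KO (log2 fold change 0.11 ± 0.097, adjusted p = 0.388). Pmaip1 (ENSMUSG00000024521, chr18:66458533-66465565, plus strand), which encodes the BH3-only protein Noxa, measured 90.5 to 102 CPM in Control and 71.9 to 101 CPM in Mta123KO (-0.15 ± 0.123, adjusted p = 0.338). The ranges of all 3 genes overlapped between genotypes.

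**Figure D1:**
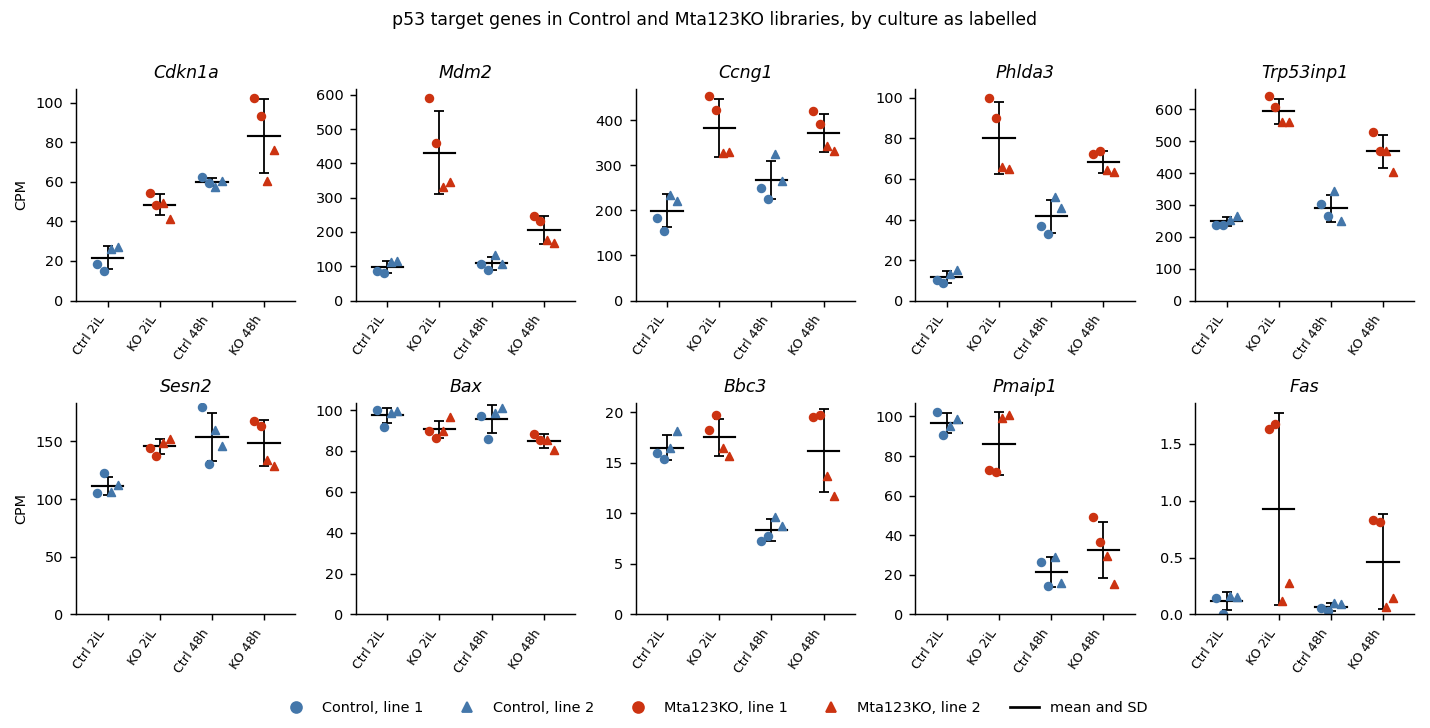
CPM of each of the 10 genes in the 16 Control and Mta123KO libraries, by culture as labelled, with circles for line 1, triangles for line 2 and a bar for the mean and SD of the 4 libraries of a group. Mdm2 in Mta123KO labelled 2iL spans 329.6 to 591 CPM against 80.1 to 116 CPM in Control, while Bax stays between 80.4 and 101 CPM in all 4 groups.

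In the libraries labelled 48h, again 6 of the 9 members tested were higher in Mta123KO and none was lower, against 26.6% of all 21079 genes tested higher and 23.4% lower. The median log2 fold change was 0.60 over the members and 0.01 over all genes. None of the rises exceeded 2-fold, and the set of genes differed by a pair: Bbc3 passed here and Sesn2 did not. The Control libraries of this comparison are others than those of the preceding one.

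Mdm2 measured 106, 87.8, 134 and 107 CPM in Control and 247, 232, 175 and 167 CPM in Mta123KO. The groups did not overlap and the log2 fold change was 0.93 ± 0.161 (adjusted p = 0.00134). Phlda3 measured 37.0, 32.9, 50.9 and 45.6 CPM in Control and 72.3, 73.9, 64.4 and 63.4 CPM in Mta123KO, a log2 fold change of 0.73 ± 0.134 (adjusted p = 0.00183). Trp53inp1 rose from 249 to 344 CPM to 402 to 528 CPM (0.70 ± 0.117, adjusted p = 0.00108), and Ccng1 from 226 to 325 CPM to 331 to 421 CPM (0.49 ± 0.122, adjusted p = 0.00873). In these genes and Bbc3, 5 in all, the lowest Mta123KO library was above the highest Control library, as in 24.6% of all genes.

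Cdkn1a measured 62.5, 59.6, 57.5 and 60.5 CPM in Control and 102, 93.3, 60.2 and 76.3 CPM in Mta123KO. The groups overlapped, because 1 library of Mta123KO line 2 lay within the Control range. The log2 fold change was 0.48 ± 0.147 (adjusted p = 0.0225), and the call was lost without Control_48h library 1_2 or 2_1 and without Mta123KO_48h library 1_1 or 1_2 (0.37 to 0.46, adjusted p = 0.0519 to 0.0605), with line as the sample (adjusted p = 0.147) and with scaling on the ERCC spike-ins (adjusted p = 0.293). Spike-in scaling lowered the median of all genes by 0.18 in this comparison, and with it Ccng1, Phlda3 and Trp53inp1 also lost their calls (adjusted p = 0.313, 0.0629 and 0.0785). With line as the sample, Ccng1, Phlda3 and Bbc3 were lost as well (adjusted p = 0.108, 0.0637 and 0.0710), which left Mdm2 and Trp53inp1.

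Of the 3 mitochondrial cell death genes, only Bbc3 passed. It measured 7.30, 7.72, 9.62 and 8.79 CPM in Control and 19.6, 19.8, 13.7 and 11.8 CPM in Mta123KO, with no overlap and line 1 above line 2. The log2 fold change was 0.97 ± 0.185 (adjusted p = 0.00226). Bax measured 85.8 to 101 CPM in Control and 80.4 to 88.5 CPM in Mta123KO, a log2 fold change of -0.16 ± 0.069 that did not pass (adjusted p = 0.0738) but did so without Control_48h library 1_2 (-0.23, adjusted p = 0.0223). Pmaip1 spread widely, at 26.6, 14.4, 29.2 and 15.9 CPM in Control and 49.0, 36.5, 29.2 and 15.5 CPM in Mta123KO (0.60 ± 0.346, adjusted p = 0.174). Without Mta123KO_48h library 2_2 it passed, at 0.84 (adjusted p = 0.0341). Sesn2 was at 131 to 179.6 CPM and 129 to 168 CPM (-0.04 ± 0.121, adjusted p = 0.788).

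**Figure D2:**
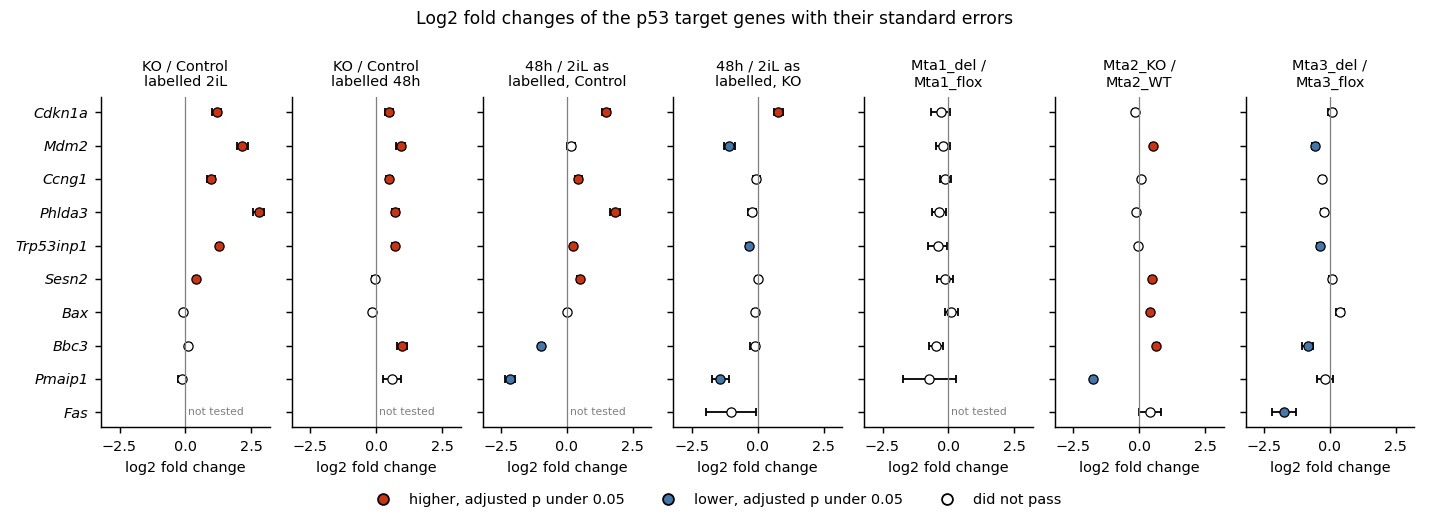
Log2 fold change of each gene (points, with bars of 1 SE) in the 7 comparisons of groups, with filled points for an adjusted p under 0.05. The cell cycle and feedback genes at the top lie to the right of 0 in both comparisons of Mta123KO with Control, from 0.48 to 2.78, whereas Bax lies at -0.09 and -0.16 there.

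The size of the genotype effect differed between the culture labels for 5 of the 10 genes, by the interaction term over all 16 libraries. It was lower under the label 48h for Phlda3 (-2.04 ± 0.259, adjusted p = 4.54e-05), Mdm2 (-1.21 ± 0.274, adjusted p = 0.00456), Trp53inp1 (-0.57 ± 0.140, adjusted p = 0.00801) and Sesn2 (-0.44 ± 0.144, adjusted p = 0.0366), and higher for Bbc3 (0.87 ± 0.215, adjusted p = 0.00833). Over all 22973 genes tested, 12.5% had a higher and 10.6% a lower effect. Cdkn1a had an interaction of -0.69 ± 0.249 that did not pass (adjusted p = 0.0573), although DESeq2 called it (adjusted p = 0.0389), as did edgeR without Control_2iL library 2_1 or 2_2, Mta123KO_2iL library 2_2 or Mta123KO_48h library 1_1 (-0.81 to -0.76, adjusted p = 0.0308 to 0.0456). Pmaip1 passed without Mta123KO_48h library 2_2 (0.99, adjusted p = 0.0358). The call of Sesn2 was lost in 10 of the 16 fits that left out 1 library (Control_2iL 1_1, 2_1 and 2_2, Mta123KO_2iL 1_1, 2_1 and 2_2, Control_48h 1_1 and 2_1, Mta123KO_48h 2_1 and 2_2), at -0.45 to -0.36 (adjusted p = 0.0535 to 0.0795). With line as the sample only Phlda3 remained of the 5.

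Both Mta123KO lines carried the rise, and line 1 carried more of it. Against both Control lines, under the label 2iL, 8 of 10 genes were higher and 2 lower in line 1, where 33.8% of all genes were higher and 31.7% lower. Under both culture labels the 8 higher genes of line 1 include Fas, which passed the filter on low counts only through that line. The 2 lower genes were Pmaip1 (-0.41 ± 0.0610) and Bax (-0.14 ± 0.0589). The calls of Bax and of Bbc3 (0.21 ± 0.0769) were lost with DESeq2 and in several fits that left out 1 library (Bax without any of Control_2iL 1_1, 2_1 and 2_2 and Mta123KO_2iL 1_1 and 1_2, Bbc3 without Control_2iL 1_2 or 2_1 or Mta123KO_2iL 1_2). In line 2, 6 were higher and none lower, where 29.9% and 28.0% of all genes were. Mdm2 had a log2 fold change of 2.44 ± 0.0793 in line 1 and 1.80 ± 0.0794 in line 2, Phlda3 3.04 ± 0.0771 and 2.50 ± 0.0778, Cdkn1a 1.29 ± 0.0889 and 1.12 ± 0.0897, Ccng1 1.16 ± 0.0649 and 0.75 ± 0.0656, and Trp53inp1 1.34 ± 0.0509 and 1.19 ± 0.0510. Compared directly, line 1 was above line 2 for Fas, Mdm2, Phlda3, Ccng1 and Bbc3 and below it for Pmaip1 (21% and 19.4% of all genes), the Bbc3 difference of 0.24 ± 0.0900 being lost without any 1 of the 8 libraries (adjusted p = 0.0511 to 0.271). Under the label 48h, 8 genes were higher and none lower in line 1 (33.0% and 29.1% of all genes), and 5 were higher and Bax was lower in line 2 (28.6% and 25.4%). Cdkn1a was 0.72 ± 0.0865 in line 1 and 0.19 ± 0.0881 in line 2, where it did not pass, and the lines differed by 0.53 ± 0.102. Line 1 was also above line 2 for Fas, Mdm2, Ccng1 and Bbc3 under this label (18.4% and 14.5% of all genes for the 2 directions). There the Ccng1 difference (0.28 ± 0.0935) was lost without any of the 4 Mta123KO libraries, and that of Mdm2 (0.50 ± 0.111) without library 1_1 or 2_2 (adjusted p = 0.0522 and 0.0561).

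The Control lines differed less. Under the label 2iL, 4 genes were lower in Control line 1 than in line 2, namely Cdkn1a (-0.67 ± 0.110), Phlda3 (-0.58 ± 0.103), Mdm2 (-0.45 ± 0.0966) and Ccng1 (-0.43 ± 0.0778), where 1.75% of all genes were higher and 2.84% lower. The Mdm2 call there was lost without Control_2iL library 1_2, 2_1 or 2_2, that of Ccng1 without 2_1 and that of Phlda3 without 2_2. Under the label 48h only Phlda3 was lower (-0.47 ± 0.0828, with 1.99% and 1.66% of all genes), a call lost without Control_48h library 1_2 or 2_1 (adjusted p = 0.0782 and 0.0550). These fits rest on the spread between the 2 libraries of a line, which is smaller than the spread between lines.

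Trophoblast markers moved with the same lines. The 6 genes Cdx2, Eomes, Elf5, Gata3, Krt8 and Krt18 summed to 15.4 to 20.2 CPM in the 8 Control libraries. They summed to 336 and 375 CPM in Mta123KO line 1 and 68.9 and 73.1 CPM in line 2 under the label 2iL, and to 672, 711, 137 and 143 CPM under the label 48h. All 6 were higher in Mta123KO labelled 2iL and 4 of the 6 in Mta123KO labelled 48h, as were 27.1% and 26.6% of all genes. The epithelial keratins Krt8 and Krt18 made up most of the sums in Mta123KO, at 151 and 155 CPM in library 1 of Mta123KO line 1 labelled 2iL. Cdx2, a defining trophoblast factor, was at 0.583 and 0.301 CPM in line 2 labelled 2iL, within the 0.280 to 0.745 CPM of Control under that label, and Eomes was at 3.77 and 3.89 CPM in line 1 labelled 48h against 6.67 to 9.62 CPM in Control labelled 48h. The markers of primitive endoderm (Gata4, Gata6, Sox17, Dab2) summed to 7.77 to 16.8 CPM in Control and 11.5 to 19.7 CPM in Mta123KO labelled 2iL, which overlapped, and to 2.89 to 3.75 CPM and 15.04 to 18.3 CPM in those labelled 48h, which did not. Dab2 made up most of the sum in Mta123KO labelled 48h, at 13.1 to 16.8 CPM against 0.536 to 1.16 CPM in Control. The fibroblast markers summed to 2.60 to 5.39 CPM in Control and 6.46 to 7.68 CPM in Mta123KO labelled 2iL. In those labelled 48h they summed to 1.73 to 2.05 CPM and 2.51 to 5.34 CPM, with no overlap under either label. The single markers were mixed: under the label 2iL Thy1 was at 3.58 to 5.51 CPM in Mta123KO against 0.395 to 0.799 CPM in Control. Dcn was at 0.0486 to 0.136 CPM against 1.37 to 3.42 CPM. The part of these marker signals in the levels of the p53 targets was not tested.

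Fas (ENSMUSG00000024778, chr19:34290666-34327772, plus strand), the death receptor of the set, was near the limit of detection. Control libraries labelled 2iL held 7, 0, 8 and 7 reads of Fas and those labelled 48h held 3, 1, 4 and 4 reads, and a count of 0 allows up to 3 reads. Mta123KO held 77, 74, 5 and 13 reads under the label 2iL and 36, 37, 3 and 8 under the label 48h. The reads came from line 1, at 1.63 and 1.68 CPM and at 0.832 and 0.813 CPM, while line 2 stayed at 0.067 to 0.280 CPM. Fas in line 1 was higher than in Control in both fits by line (log2 fold change 3.92 ± 0.437 and 3.66 ± 0.428), and line 2 did not pass (0.93 ± 0.635 and 0.77 ± 0.586). Fas was tested in these fits only because the reads of line 1 took it past the filter on low counts. Its call in line 1 thus rests on the same values that let it in. The value for line 2 under the label 2iL became 3.30 (adjusted p = 0.0105) without Control_2iL library 1_1, which left Control line 1 with its library of 0 reads.

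**Figure D3:**
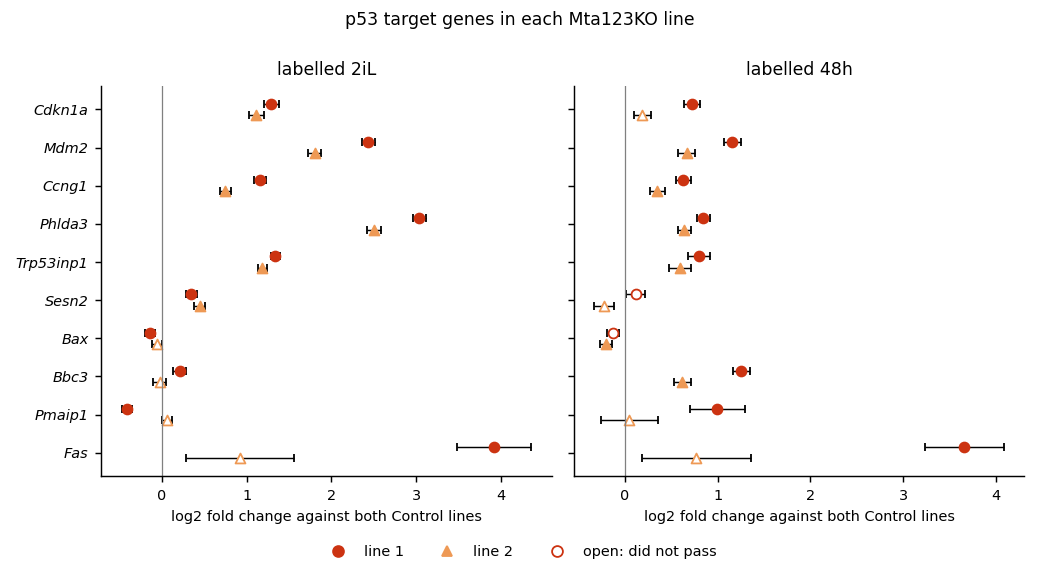
Log2 fold change (points, with bars of 1 SE) of each gene in Mta123KO line 1 and line 2, each against both Control lines, under each culture label, with open symbols for an adjusted p of 0.05 or more. Line 1 lies to the right of line 2 for Mdm2, Ccng1, Phlda3, Trp53inp1, Bbc3 and Fas under both labels. Fas, which passed the filter on low counts only through line 1, is filled only there.

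The next comparison asked how the targets change with culture within a genotype. In Control, libraries labelled 48h had higher RNA of 5 genes than those labelled 2iL and lower RNA of 2 genes, of 9 tested, where 29.5% of all 21240 genes were higher and 29.0% lower. Cdkn1a rose 2.81-fold, from 14.9 to 26.9 CPM to 57.5 to 62.5 CPM (log2 fold change 1.49 ± 0.160, adjusted p = 1.33e-05), and Phlda3 rose 3.55-fold (1.83 ± 0.182, adjusted p = 7.30e-06). Sesn2 (0.48 ± 0.0937), Ccng1 (0.43 ± 0.137) and Trp53inp1 (0.24 ± 0.0919) rose less. The opposite change was seen in the BH3-only genes. Pmaip1 was 4.44-fold lower, at 90.5 to 102 CPM against 14.4 to 29.2 CPM, and Bbc3 1.96-fold lower, at 15.4 to 18.2 CPM against 7.30 to 9.62 CPM (adjusted p = 4.33e-06 and 1.15e-05). Mdm2 (0.16 ± 0.142) and Bax (-0.01 ± 0.0625) did not pass. Cdkn1a and the BH3-only genes thus moved in opposite directions with culture in Control. The Trp53inp1 call was lost in 5 of the 8 fits that left out 1 library (Control_2iL 1_1, 1_2 and 2_1, Control_48h 1_1 and 2_1) and with DESeq2 (adjusted p = 0.0528), and that of Ccng1 without Control_2iL library 1_1 or Control_48h library 2_1 (adjusted p = 0.0545 and 0.0531).

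In Mta123KO, Cdkn1a again rose from the label 2iL to the label 48h, by 0.78 ± 0.164 (adjusted p = 0.0110), while Mdm2, Pmaip1 and Trp53inp1 fell. Mdm2 dropped from 329.6 to 591 CPM to 167 to 247 CPM (-1.08 ± 0.212, adjusted p = 0.00804), and Pmaip1 from 71.9 to 101 CPM to 15.5 to 49.0 CPM (-1.41 ± 0.312, adjusted p = 0.0133). Trp53inp1 had -0.35 ± 0.0932 (adjusted p = 0.0291). Of all 21505 genes, 12.4% were higher and 10% lower, against 1 and 3 of the 10 members. Libraries of the same line deviated together here, and a fit that took the replicate number as a block also gave Fas as lower (-0.97, adjusted p = 0.0118), while line as the block gave Fas (-0.98, adjusted p = 0.0114) and Phlda3 (-0.21, adjusted p = 0.0325). With line as the sample none of the 4 calls remained (adjusted p = 0.244 to 0.385), a setting in which no gene at all was called. The Trp53inp1 call was lost without Mta123KO_2iL library 1_1 or 1_2 and without Mta123KO_48h library 1_2, 2_1 or 2_2 (-0.35 to -0.28).

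Put in order, Cdkn1a was lowest in Control labelled 2iL (mean 21.6 ± 5.85 CPM, SD), then 48.3 ± 5.34 CPM in Mta123KO labelled 2iL, 60.0 ± 2.07 CPM in Control labelled 48h and 83.0 ± 18.7 CPM in Mta123KO labelled 48h. Control and Mta123KO labelled 48h overlapped in this order. Mdm2 took another order, with 98.6 ± 17.9 and 109 ± 18.9 CPM in Control labelled 2iL and 48h, which overlapped, then 205 ± 40.1 CPM in Mta123KO labelled 48h and 431 ± 121 CPM in Mta123KO labelled 2iL. Per kilobase of exon, the levels in Control labelled 2iL ran from 61.8 CPM for Bax, 56.7 for Ccng1, 38.4 for Trp53inp1, 35.4 for Pmaip1, 32.1 for Sesn2 and 19.4 for Mdm2 to 7.77 for Bbc3, 7.60 for Phlda3, 6.08 for Cdkn1a and 0.0558 for Fas. Across the 16 libraries the log2 CPM of Mdm2 ran with that of Trp53inp1 (Pearson r = 0.957) and Ccng1 with Phlda3 (0.94), while Cdkn1a ran against Pmaip1 (-0.644) and little with Bbc3 (-0.188). These values describe 16 libraries that share genotype, culture and line. The 5 other genes most like Cdkn1a, of 17068 with a mean of at least 1 CPM, were Gm9817 (0.978), Hsp25-ps1 (0.978), 4930404A12Rik (0.976), Tns1 (0.975) and Atp6v0a2 (0.973).

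Among the single mutants, 5 of the 10 genes were called in Mta2_KO against Mta2_WT, about the share of all genes called there (7460 of 15602). Of all 15602 genes, 23.5% were higher and 24.3% lower in Mta2_KO than in Mta2_WT, against 4 and 1 of the members. Mdm2 rose from 180.1, 183 and 168 CPM to 251, 241 and 267 CPM, with no overlap (log2 fold change 0.51 ± 0.0538, 1.42-fold, adjusted p = 5.59e-05, n = 3 libraries each by edgeR). The cell death genes Bax (0.41 ± 0.0518) and Bbc3 (0.64 ± 0.0975) rose, from 92.9 to 102 CPM to 126 to 138 CPM and from 6.85 to 7.60 CPM to 10.4 to 12.3 CPM. Sesn2 rose from 114 to 126 CPM to 158 to 177 CPM (0.47 ± 0.0603). Pmaip1 moved the other way, from 55.4, 55.8 and 48.2 CPM in Mta2_WT to 15.4, 15.7 and 16.2 CPM in Mta2_KO, 3.39-fold lower (-1.76 ± 0.0709, adjusted p = 9.43e-08). With Ccng1 among the higher and Phlda3 among the lower, 5 genes lay wholly above and 2 wholly below Mta2_WT, as did 28.5% and 28.3% of all genes.

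Cdkn1a, Phlda3, Ccng1 and Trp53inp1, all higher in Mta123KO under both culture labels, did not pass in Mta2_KO, and whether the 2 mutants differ was not tested because the sets were prepared separately. Cdkn1a was at 74.2 to 90.8 CPM in Mta2_WT and 72.9 to 79.2 CPM in Mta2_KO (-0.17 ± 0.0759, adjusted p = 0.0885), and Phlda3 at 73.8 to 78.1 and 68.5 to 72.2 CPM (-0.12 ± 0.0441, adjusted p = 0.0530). Ccng1 (0.09 ± 0.0479), Trp53inp1 (-0.03 ± 0.0502) and Fas (0.40 ± 0.423) did not pass either. Cdkn1a did pass, as lower, without Mta2_WT library 3 (-0.26, adjusted p = 0.00234), and Phlda3 without Mta2_KO library 2 (-0.15, adjusted p = 0.0429). In a fit of all 18 single-mutant libraries together none of the 5 calls remained (0.41 to 0.65 and -1.75, adjusted p = 0.0533 to 0.207). The trophoblast markers summed to 52.0 to 55.4 CPM in Mta2_WT and 14.5 to 18.9 CPM in Mta2_KO, and the part of this in the p53 targets was not tested.

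In Mta3_del, 4 of the 10 genes were lower than in Mta3_flox and none was higher, where 8.32% of all 15522 genes were higher and 7.84% lower. Mdm2 measured 221, 245 and 243 CPM in Mta3_flox and 161, 183 and 151 CPM in Mta3_del (-0.58 ± 0.109, adjusted p = 0.0204). Bbc3 measured 19.1, 15.1 and 23.8 CPM against 11.99, 12.7 and 8.69 CPM (-0.84 ± 0.214, adjusted p = 0.0350), and Trp53inp1 481 to 513 CPM against 357 to 417 CPM (-0.38 ± 0.107, adjusted p = 0.0450). Fas held 14, 25 and 23 reads in Mta3_flox and 8, 9 and 4 reads in Mta3_del (-1.75 ± 0.450, adjusted p = 0.0359). It passed the filter on low counts only through Mta3_flox, so its call as lower rests on the same values that let it in. The 4 lower genes, Fas included, and Ccng1 did not overlap between the groups, 5 of the 10 against 17.5% of all genes in that direction. Bax alone lay wholly higher (23.7% of all genes). The 4 calls rested on all libraries. Without Mta3_del library 1 or 3 or Mta3_flox library 2 or 3 none of them passed, and without Mta3_flox library 1 only Mdm2 did. The 5 fibroblast markers (Col1a1, Col1a2, Col3a1, Thy1, Dcn) summed to 11.5 to 58.1 CPM in Mta3_flox and 5.66 to 6.41 CPM in Mta3_del. The 1088 olfactory receptor genes summed to 172, 149 and 40.8 CPM in Mta3_flox and 46.6, 85.3 and 33.7 CPM in Mta3_del. The part of either in the p53 targets was not tested.

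In Mta1_del no member and no other gene passed the test against Mta1_flox, with 0% of 14561 genes called by edgeR in either direction, 50 genes (0.343%) at an unadjusted p under 0.05 and none called by DESeq2, which had 88 genes at an unadjusted p under 0.05. The libraries within each group spread widely, and same-numbered libraries of the 2 groups deviated together. Cdkn1a measured 137, 123 and 52.0 CPM in Mta1_flox and 102, 90.4 and 64.7 CPM in Mta1_del (-0.29 ± 0.360), and Mdm2 127, 173 and 96.6 CPM against 115, 142 and 86.6 CPM (-0.22 ± 0.271). Mdm2 was lower in all 3 same-numbered pairs. With the replicate block 506 genes were at an unadjusted p under 0.05 and none was called, Mdm2 being at -0.20 ± 0.0861 and Trp53inp1 at -0.36 ± 0.111 (adjusted p = 0.983 for both). The standard errors without the block were 0.223 to 0.361 for the members other than Pmaip1 and 1.004 for Pmaip1. Pmaip1, at 0.749 to 10.9 CPM in the 6 libraries of both groups, was below its 15.4 to 59.4 CPM in the other 12 single-mutant libraries.

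**Figure D4:**
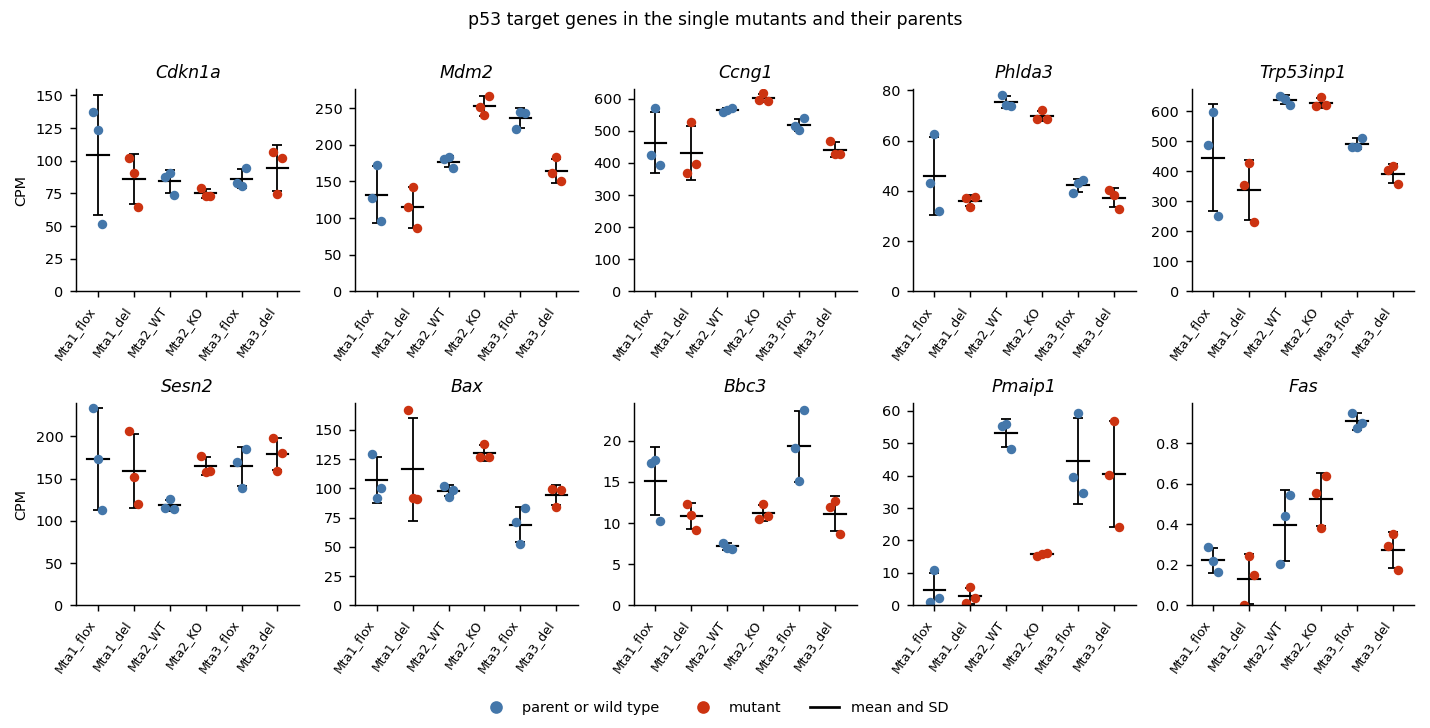
CPM of each of the 10 genes in the 18 single-mutant libraries, with points for the 3 libraries of a group and a bar for the mean and SD. Pmaip1 is at 15.4 to 16.2 CPM in Mta2_KO against 48.2 to 55.8 CPM in Mta2_WT, and the 3 Mta1_flox libraries of Cdkn1a spread from 52.0 to 137 CPM.

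The 10 genes were set beside 30 other p53 targets, a list also chosen with earlier results of these data known. In Mta123KO labelled 2iL, 17 of these were higher and 4 lower (56.7% and 13.3%, against 27.1% and 24.2% of all genes). Their median log2 fold change was 0.61. The largest rise was that of Perp, which encodes a membrane protein of cell adhesion and p53-dependent cell death, from 4.20 to 9.55 CPM in Control to 182, 154, 54.4 and 53.7 CPM in Mta123KO (4.09 ± 0.497, adjusted p = 0.000186). Steap3, a metalloreductase, rose by 2.34 ± 0.271. Gadd45a, a growth arrest gene (-1.16 ± 0.099), and Fdxr, ferredoxin reductase (-0.62 ± 0.108), fell. Under the label 48h, 12 were higher and 4 lower with a median of 0.14 (40.0% and 13.3%, against 26.6% and 23.4% of all genes). Perp (3.71 ± 0.566) and Cd82 (2.54 ± 0.511) led the higher ones, and Gdf15 (-1.45 ± 0.251) and Rrm2b (-0.56 ± 0.118) were lower. In Mta2_KO, 14 of 29 were higher and 4 lower (48.3% and 13.8%, against 23.5% and 24.3% of all genes). The rise of Perp was again the largest, from 9.69 to 11.1 CPM to 52.5 to 56.0 CPM (2.37 ± 0.0669), followed by Eda2r, a receptor of the tumour necrosis factor family (1.76 ± 0.0577). In Mta3_del only Tigar was higher of 29 (0.56 ± 0.131), and 7 were lower, among them Gdf15 (-1.26 ± 0.217) and Plk2 (-1.15 ± 0.118). These were 3.45% and 24.1%, against 8.32% and 7.84% of all genes. None passed in Mta1_del. With culture, 11 of 30 were higher and 5 lower in Control, led by Gdf15 (2.31 ± 0.160) and Gadd45a (-2.81 ± 0.111), and 6 and 8 in Mta123KO, where the replicate block gave 9 and 11. Of all genes, 29.5% were higher and 29.0% lower with culture in Control and 12.4% and 10% in Mta123KO.

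**Figure D5:**
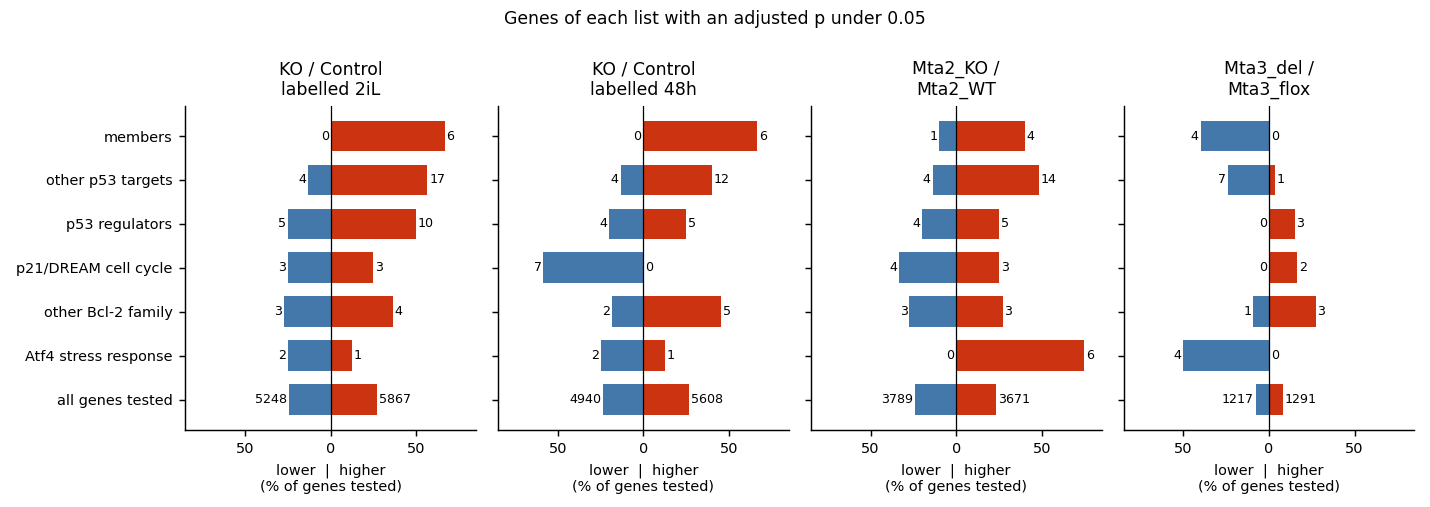
Share of the tested genes of each list (bars, % of genes tested) that were higher, to the right, or lower, to the left, with an adjusted p under 0.05 in 4 comparisons, with the number of genes at the end of each bar. The 10 genes reach 6 of 9 higher in both comparisons of Mta123KO with Control, against 27.1% and 26.6% of all genes.

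Trp53 itself did not pass in either comparison of Mta123KO. It measured 168 to 203 CPM in Control labelled 2iL and 200.2, 192, 274 and 301 CPM in Mta123KO (0.35 ± 0.148, adjusted p = 0.0748), the higher pair being line 2. In libraries labelled 48h it was at 221 to 264 CPM and 179 to 232 CPM (-0.22 ± 0.0971, adjusted p = 0.0809). Of the 20 regulators of p53, 10 were higher and 5 lower under the label 2iL, and 5 and 4 under the label 48h. These were 50% and 25.0% under the label 2iL, against 27.1% and 24.2% of all genes. Under the label 48h they were 25.0% and 20.0%, near the 26.6% and 23.4% of all genes. Cdkn2a, whose Arf product blocks Mdm2, rose in both (1.58 ± 0.132 and 0.89 ± 0.0833), from 6.93 to 9.98 CPM to 20.7 to 25.5 CPM and from 9.85 to 11.7 CPM to 18.6 to 20.2 CPM. Ppm1d, the phosphatase that switches the p53 response off and is itself a p53 target, rose by 0.75 ± 0.139 and 0.34 ± 0.0818. Mdm4, the partner of Mdm2, rose under the label 2iL (0.72 ± 0.0654) and not under the label 48h (-0.15 ± 0.103). Trp63, a p53 relative, rose from a very low level, 0.169 to 1.19 CPM (2.80 ± 0.436) and 0.120 to 1.56 CPM (3.66 ± 0.471). The checkpoint kinase Chek1 fell in both (-0.75 ± 0.142 and -0.78 ± 0.135). In Mta2_KO, Trp53 (0.21 ± 0.0491, adjusted p = 0.00674) and Cdkn2a (1.37 ± 0.0888) rose, and 5 of the 20 were higher and 4 lower, near the 23.5% and 24.3% of all genes. In Mta3_del, 3 of the 20 regulators were higher and none was lower, where 8.32% of all genes were higher and 7.84% lower. Trp53 was among these 3 (0.46 ± 0.123, adjusted p = 0.0391). That call was lost without any 1 of the 6 libraries except Mta3_del library 2 (0.40 to 0.51, adjusted p = 0.0716 to 0.147).

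The 12 cell cycle genes that p21 lowers through the DREAM repressor complex were mixed under the label 2iL, with 3 higher, among them Cdc25c (0.60 ± 0.0936), and 3 lower, among them Bub1 (-0.39 ± 0.0837), 25.0% each way against 27.1% and 24.2% of all genes. In libraries labelled 48h, 7 were lower (58.3%, against 23.4% of all genes) and none higher, led by the replication factor Mcm5 (-0.72 ± 0.117) and the mitotic kinase Bub1 (-0.50 ± 0.0946). Of the 11 other Bcl-2 family genes tested, 4 were higher and 3 lower under the label 2iL (36.4% and 27.3%, against 27.1% and 24.2% of all genes). These included the BH3-only genes Bcl2l11 (0.91 ± 0.162) and Bid (0.81 ± 0.0967) above Control and the survival gene Mcl1 (-0.50 ± 0.0915) below it. Under the label 48h, 5 were higher, led by Bik (3.30 ± 0.645) and Bok (1.38 ± 0.220), and 2 lower (45.5% and 18.2%, against 26.6% and 23.4% of all genes). In Mta2_KO 27.3% of the 11 Bcl-2 family genes tested were higher and 27.3% lower, near the 23.5% and 24.3% of all genes. Those with the largest changes were the survival genes Bcl2l1 (-0.99 ± 0.0638) and Mcl1 (-0.75 ± 0.0514), which fell, and Bik (2.46 ± 0.206) and Hrk (1.68 ± 0.235), which rose. Of 5 genes of the death receptor arm, 1 was higher and 1 lower in each comparison of Mta123KO. Of all genes, 27.1% were higher and 24.2% lower under the label 2iL, and 26.6% and 23.4% under the label 48h. The Atf4 stress response, which includes Sesn2, had 1 of 8 genes higher and 2 lower (12.5% and 25.0%) in both comparisons of Mta123KO, among them Atf4 itself (-0.43 ± 0.132 and -0.42 ± 0.117). It had 6 of 8 higher in Mta2_KO (23.5% of all genes), led by Trib3 (1.44 ± 0.0885), where Sesn2 also rose. In Mta3_del 4 of 8 were lower (7.84% of all genes), led by Atf3 (-2.17 ± 0.243).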

How the data were processed

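Gene counts were deposited per library by the authors, who trimmed reads with Trim Galore 0.4.1, aligned them with TopHat2 2.1.0 to GRCm38/mm10 and counted reads per gene with featureCounts 1.5.0 on Ensembl 86. The strand setting and the treatment of multimapping reads were not given in the sources used here. The Control and Mta123KO set was paired-end with 92 ERCC spike-ins, the single-mutant set single-end. Spike-ins were left out of library sizes.

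Symbols, exon lengths and coordinates came from GENCODE vM21 (GRCm38), matched by gene ID for 48349 of 48709 and 21852 of 22018 genes. Each comparison was fitted on its own libraries over all genes in R 4.3.3 with edgeR 4.0.16 (filterByExpr, TMM, quasi-likelihood F test) and Benjamini-Hochberg adjustment over all genes tested. A call needed an adjusted p under 0.05. The SE is the absolute log2 fold change divided by the square root of F. The interaction used the libraries of both cultures. The fits by line were made within each culture label, on the libraries of both lines of both genotypes. The fits were tested on simulated counts. The members and gene lists were chosen with earlier results of these data known.

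Named were the 10 members, Trp53, Mdm4, Ppm1d and Cdkn2a, the targeted genes, the 5 genes most like Cdkn1a, and of each other list at most 2 higher and 2 lower called genes with the largest change, where the higher group averaged 1 CPM or more.

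Libraries of a line differed by more than counting noise (chi-square per degree of freedom 6.32 to 19.4 over 8 pairs) and were kept apart, but nothing in the labels shows them to be separate cultures, so that p-values may measure technical spread. Libraries of the same line and number deviated together in the culture comparisons (correlation 0.358 to 0.436 in Control, 0.623 to 0.675 in Mta123KO) and in Mta1 (0.439 to 0.736). The lines and numbers come from the labels, and these comparisons were also fitted with the replicate number as a block. Alternatives were DESeq2 1.42.0, its size factors, no filter on low counts, spike-in scaling, libraries of a line summed, line as a block, all libraries of a set in 1 fit, the block and leaving out each library. The alternatives of the fits by line were chosen after seeing the data.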

Additional observations from a re-analysis of the deposited data

Results flagged for a closer look

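Fas in the Control libraries labelled 2iL was flagged because 1 of the 4 libraries, at 0 CPM, lay far from the other three. It was the only such library among 40 groups of 4 tested over the 10 genes, where chance alone flags about 1 group in 20.

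The genotype effect differed between the culture labels, by the interaction term, for Mdm2 (-1.21), Phlda3 (-2.04), Trp53inp1 (-0.57), Sesn2 (-0.44) and Bbc3 (0.87) on the log2 scale. Over all 22973 genes tested, 12.5% had a higher and 10.6% a lower effect. Of each other list only genes named by the rule given above were looked at, so that further genes may have differed. Among the other p53 targets the genotype effect differed for Gadd45a (0.83), Sesn1 (0.72), Gdf15 (-1.72) and Ephx1 (-1.71). Among the regulators these were Trp53 (-0.57), Mdm4 (-0.86), Cdkn2a (-0.69) and Trp53bp1 (0.25), and among the cell cycle genes lowered through DREAM Cdc25c (-0.51) and Cdk1 (-0.51). Of the Bcl-2 family and the death receptor arm, Bik (3.37), Bok (2.41), Bak1 (-0.60), Bid (-0.36) and Cflar (1.18) differed.

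The 2 Mta123KO lines differed from each other. Under the label 2iL, line 1 was above line 2 for Mdm2 (0.63), Ccng1 (0.41), Bbc3 (0.24), Phlda3 (0.53) and Fas (3.0) and below it for Pmaip1 (-0.47). Under the label 48h, line 1 was above line 2 for Cdkn1a (0.53), Mdm2 (0.50), Ccng1 (0.28), Bbc3 (0.64) and Fas (2.89), where 18.4% of all genes were above and 14.5% below. Fas entered these fits only through the reads of line 1, so its calls rest on the values that let it in. The calls of Bbc3 under the label 2iL and of Ccng1 and Mdm2 under the label 48h depended on single libraries, as given above.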

How the results depend on the processing

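Of the counts of members called, 104 of 117 under the alternatives stayed within 1.5 times the reported count, and of the values of single members 986 of 1113 kept their direction and their side of the threshold, with 83 losing and 17 gaining a call and 27 changing sign. With the libraries of a line summed, the count fell to 2 in Mta123KO labelled 48h, 0 in the culture change of Mta123KO and 1 in the interaction, and over all genes from 11115 to 3758 (label 2iL), 10548 to 4085 (label 48h), 4817 to 0 and 5306 to 710. With spike-in scaling these counts were 2, 2 and 3 of the members, and over all genes 3442 higher and 4346 lower against 5608 and 4940 (label 48h), 1478 and 1317 against 2662 and 2155 (culture, Mta123KO) and 1383 and 1981 against 2879 and 2427 (interaction). The culture change in Control became 5993 higher and 3664 lower against 6261 and 6158. Spike-in scaling moved the median of all genes by -0.18, 0.18 (culture, Control) and -0.22 (interaction), and it turned the sign of Bax (0.17), Ppm1d (0.09) and Plk1 (0.01) in the culture change of Control and of Mta1 in the interaction (-0.13). With all libraries of the single mutants in 1 fit, 0 members were called in Mta2_KO and 2 in Mta3_del, and 2622 of all genes in Mta2_KO against 7460. The cause was not tested.

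Fitted with a replicate block, the members higher and lower were 6 and 0 under the label 2iL, 6 and 0 under the label 48h, 5 and 2 and then 1 and 4 with culture in Control and Mta123KO, 1 and 4 in the interaction, 0 in Mta1_del, 4 and 1 in Mta2_KO and 1 and 2 in Mta3_del. In Mta3_del, Bax was gained (0.42, adjusted p = 0.0481) and Bbc3 (0.0645) and Trp53inp1 (0.0561) were lost. The block raised all calls of the culture change in Mta123KO to 5075 higher and 4459 lower, and line as a block to 5510 and 4959. Same-numbered libraries did not deviate together between genotypes (correlation -0.264 to -0.007 and -0.11 to 0.064), nor in every pair of Mta2 (-0.25 to 0.437) and Mta3 (-0.163 to 0.323), so there they share only a number.

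Leaving out 1 library at a time, the count of members called ranged from 0 to 4 in Mta3_del, while over all genes it ranged from 3 to 4132 against 2508. Values that crossed 0 ranged from -0.13 to 0.03 for Sesn2 under the label 48h, -0.05 to 0.04 for Bax with culture in Control, and -0.12 to 0.04 for Ccng1, -0.23 to 0.01 for Bbc3 and -0.04 to 0.09 for Sesn2 with culture in Mta123KO. In the interaction they were Fas (-0.69 to 0.18) and Mta1 (0 to 0.24). In Mta1_del they were Mdm2 (-0.40 to 0.04), Ccng1 (-0.29 to 0.08), Bax (-0.22 to 0.26), Pmaip1 (-1.70 to 0.78), Sesn2 (-0.36 to 0.12), Trp53 (-0.01 to 0.22), Cdkn2a (-0.08 to 0.17) and Mta3 (-0.29 to 0.04). Ppm1d in Mta2_KO ranged from -0.04 to 0.02, and in Mta3_del Cdkn1a ranged from -0.01 to 0.22, Pmaip1 from -0.53 to 0.09, Sesn2 from -0.03 to 0.15 and Mta1 from -0.01 to 0.10. Fas, at 0 to 77 reads a library in Control and Mta123KO, was limited by depth.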
